A study of Mus musculus with 447 samples.

Results

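The genes described here are 36 genes of the unfolded protein response and of protein import and folding in the endoplasmic reticulum (ER). They were chosen by name, though with earlier results of these data known, and all 36 were found among the 40824 genes of the deposited counts. They fall into 6 roles: stress sensors with their target factor Xbp1, the ATF4 branch, chaperones, disulfide isomerases with lectin chaperones, ER-associated degradation (ERAD), and the translocon with its partners. Their RNA was measured by Smart-seq3, a plate method that amplifies polyadenylated RNA of single sorted cells, in 447 GFP-positive cells sorted from the fetal mouse pancreas at E15.5. Of these, 235 cells carried the label Pdx1CreNgn3KONeurod1OE, here Ngn3KO, and 212 carried Pdx1CreNeurod1OE, here Neurod1OE. The design text writes these genotypes as Pdx1CreER;Ngn3fl;Neurod1OE and Pdx1CreER;Neurod1OE. In both, an inducible Cre under the Pdx1 promoter acts in pancreatic cells to switch on the transcription factor NeuroD1. Only Ngn3KO also carries the floxed allele of Ngn3 (gene Neurog3), the factor that normally acts ahead of NeuroD1 in endocrine cells. Wild-type cells were not analysed here. Both labels name added NeuroD1, and without wild-type cells the Neurod1 levels given below cannot settle whether each group had it. Titles split the cells into a set 3, with 30 Ngn3KO and 95 Neurod1OE cells, and a set 2 with the remaining 322 cells. What the number means is not stated, and comparisons between genotypes stay within a set. No animal or litter is named, so each genotype of a set is 1 sample, no test between them was possible, and intervals cover counting error only.

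Proteins bound for secretion enter the ER through the Sec61 translocon, lose their signal peptide to signal peptidase, and fold with the help of chaperones and disulfide isomerases. When unfolded protein accumulates, the membrane sensors IRE1 (gene Ern1), PERK (Eif2ak3) and ATF6 (Atf6) respond. IRE1 splices Xbp1 mRNA, PERK favours translation of ATF4, and ATF6 is cut to release a transcription factor. Acinar and endocrine cells of the pancreas both secrete protein in bulk, and XBP1 is known to be needed for a developed secretory apparatus in acinar cells. Gene counts hold neither splicing of Xbp1 nor protein levels, so the values below are amounts of RNA and do not measure sensor activity.

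Promoters of several of these genes hold the ER stress response element (ERSE), a motif known to be bound by ATF6 together with NF-Y. A window of 300 bases, from 250 before to 50 after the RefSeq start (GRCm38.p6), was found for 30 of the 36 genes and searched on both strands. The ERSE, searched as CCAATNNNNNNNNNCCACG, was present in 8 of the 30 windows and in 39 of 32851 promoters (0.119%). The shorter ERSE-II, ATTGGNCCACG, was present in 2 windows (Dnajb11 and Herpud1) and in 12 promoters (0.0365%). These motifs share the CCACG end, and the search let them overlap. The windows are shown because they separate genes of these roles by sequence, and their genes' levels are given with the roles. Each line has 10 bases on either side of the motif, 5′ to 3′ on the strand of the gene; capitals mark the fixed letters, which read CGTGG and ATTGG where the motif lies on the other strand.
Hspa5, chr2:34772015-34772053, plus strand: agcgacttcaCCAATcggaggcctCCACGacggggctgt
Hsp90b1, distal, chr10:86705628-86705666, minus strand: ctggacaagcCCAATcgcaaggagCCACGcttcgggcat
Hsp90b1, proximal, chr10:86705523-86705561, minus strand: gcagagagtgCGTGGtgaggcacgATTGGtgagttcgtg
Dnajc3, chr14:118937817-118937855, plus strand: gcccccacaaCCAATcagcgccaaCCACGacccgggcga
Creld2, chr15:88819510-88819548, plus strand: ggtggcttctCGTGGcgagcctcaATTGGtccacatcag
Calr, chr8:84847065-84847103, minus strand: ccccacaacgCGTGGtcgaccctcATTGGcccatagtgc
Canx, chr11:50325790-50325828, minus strand: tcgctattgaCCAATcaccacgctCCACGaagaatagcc
Pdia6, chr12:17266481-17266519, plus strand: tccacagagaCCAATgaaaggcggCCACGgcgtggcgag
Syvn1, chr19:6046522-6046560, plus strand: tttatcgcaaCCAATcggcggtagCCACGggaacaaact
Herpud1, ERSE-II, chr8:94386367-94386397, plus strand: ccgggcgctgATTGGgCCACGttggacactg
The core of the unfolded protein response element, TGACGTGG, was in 0 of the 30 windows and in 222 promoters (0.676%). The amino acid response core TGATGNAA, a kind of site known to bind ATF4, was in 2 windows (Herpud1 and Trib3) and in 1304 promoters (3.97%). A window without a match lacks these letters and says nothing more about the factor.

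Cells were divided by their own level of 2 genes. Cells with at least 1000 CPM (reads scaled to 1e+06 gene reads) of Gcg, the glucagon gene, and less of Cpa1 are called Gcg cells. Cells with at least 1000 CPM of Cpa1, an acinar digestive enzyme gene, and less of Gcg are called Cpa1 cells. Set 2 was nearly all Gcg cells (312 of 322), with a share of 98.05% in Ngn3KO and 94.9% in Neurod1OE. It held 0 Cpa1 cells in either genotype, which allows a share of up to 1.46% in Ngn3KO and 2.56% in Neurod1OE. Set 3 was divided differently: the cells labelled Ngn3KO were 29 Cpa1 cells and 1 Gcg cell, and the Neurod1OE cells were 15 Cpa1 cells, 31 Gcg cells, 48 cells with neither and 1 with both. Near the limit, 4 Neurod1OE cells of set 3 had 1000 to 2000 CPM of Cpa1 (lowest 1016 CPM), and the next cell below it had 356 CPM. The cell with both, at 1322 CPM of Cpa1, is 1 of these 4. Total reads per cell ran from 25769 to 2788066, with medians of 344128 in Ngn3KO and 572744 in Neurod1OE cells of set 2, and of 728074 in Ngn3KO and 695079 in Neurod1OE cells of set 3. The levels of the targeted genes do not settle the labels. Neurog3 was scarce in both Ngn3KO (3.06 CPM) and Neurod1OE cells (3.89 CPM) of set 2, and the sources used here do not give the part of the gene that the floxed allele loses. Neurod1 stood at 292 CPM in Ngn3KO and 332 CPM in Neurod1OE cells of set 2. It stood at 30.4 CPM in the set 3 cells labelled Ngn3KO, against 217 CPM in Neurod1OE cells of set 3. Both labels name its overexpression. In the set 3 cells labelled Ngn3KO, 1 cell held 54.6% of the Neurod1 reads. The labels of set 3 also differ in states, and Neurod1 is itself among the pan-endocrine markers used below. Directions in set 3 are therefore directions between labels.

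Together the 36 genes took 19034 CPM in Cpa1 cells labelled Ngn3KO and 14710 CPM in Cpa1 cells of Neurod1OE. They took 10273 CPM in Gcg cells and 10120 CPM in cells with neither marker, both of Neurod1OE in set 3. In Gcg cells of set 2 they took 12050 CPM in Ngn3KO and 11026 CPM in Neurod1OE. Cpa1 cells thus gave more of their reads to these genes than Gcg cells, but the cells overlapped: the lowest Cpa1 cell of Neurod1OE had 7089 CPM and the highest Gcg cell of set 3 had 22034 CPM. The translocon group took the most reads of the 6 roles in all 6 cell groups, with 8451 CPM in Cpa1 cells labelled Ngn3KO, 6332 CPM in Cpa1 cells of Neurod1OE and 4058 CPM in Gcg cells of Neurod1OE in set 3. In summed reads, fewer cells with a transcript and less of it per cell cannot be told apart, so shares of cells are given where a gene is scarce.

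**Figure D1:**
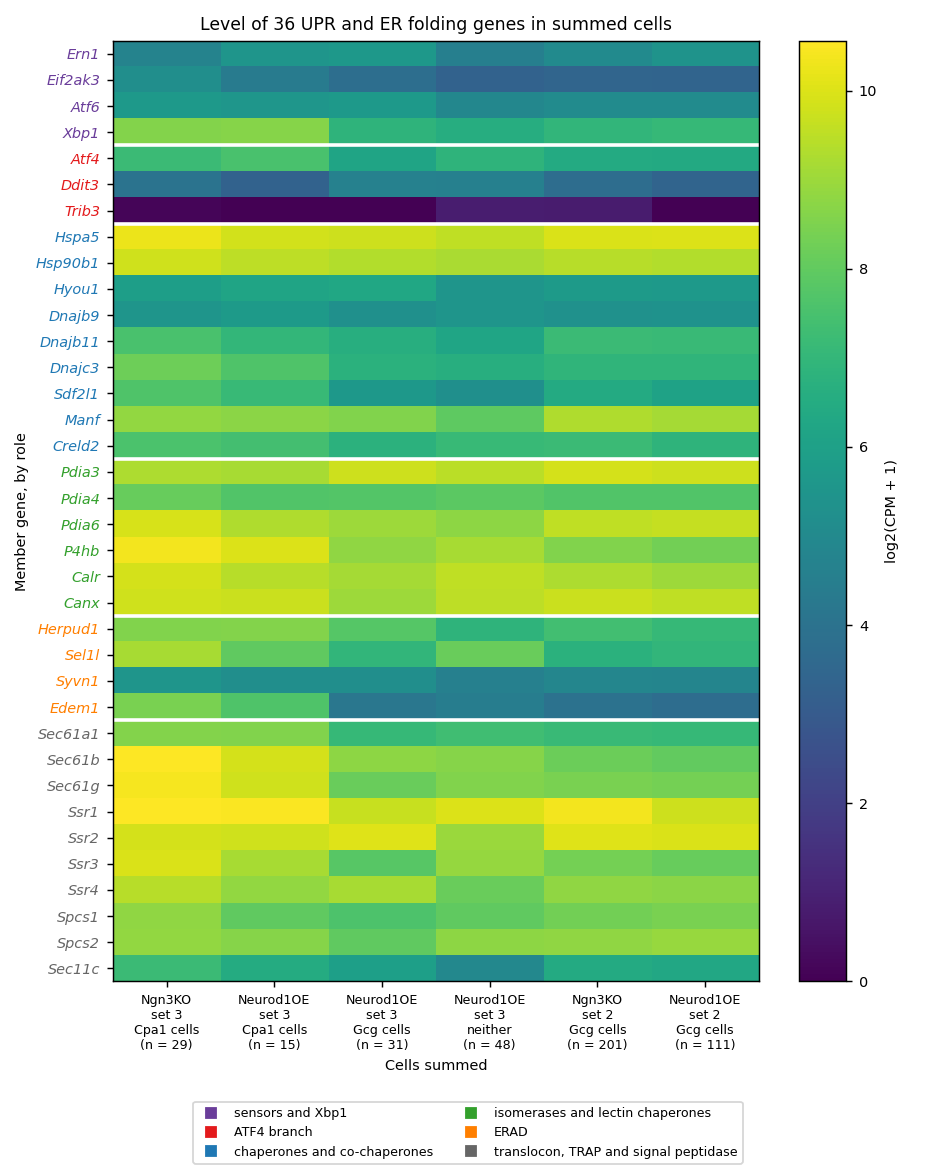
Heat map of log2(CPM + 1) of the 36 genes (rows, grouped by role) in 6 groups of summed cells (columns, with the number of cells). CPM is not corrected for gene length, so colours compare along a row. Edem1, Xbp1, Sec61b, Sec61g and P4hb are brighter in the 2 Cpa1 columns than in the Gcg columns, and Trib3 is dark throughout.

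Between the genotypes in set 2, where nearly every cell was a Gcg cell, these genes stood at like levels. A gene was measured if either sum had 10 CPM or more and 10% of its cells had a read. Of the 35 genes that were, 0 lay 2-fold or more above Neurod1OE in the Ngn3KO sum and 0 lay as far below. Among all 10010 genes measured, 0.859% were higher and 1.67% lower. The members' log2 ratios ran from -0.37 (Ern1) to 0.65 (Ssr1), with a median of 0.09 against -0.07 over all genes, and 25 of 35 were above 0. Within Gcg cells of set 2 the counts were again 0 and 0, of 34 measured, where 0.921% of all genes were higher and 1.44% lower. Hspa5, the main ER chaperone, stood at 996 CPM in Ngn3KO Gcg cells and at 1034 CPM in Neurod1OE Gcg cells. Its median cell had 827 CPM in Ngn3KO and 839.6 CPM in Neurod1OE, with ranges of 176.1 to 3498 CPM and 53.9 to 4028 CPM. The cells of the genotypes thus overlapped over most of their range for this gene.

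In set 3, 10 of 35 measured members were at least 2-fold higher in cells labelled Ngn3KO than in Neurod1OE cells and 0 were lower, where 5.96% of all 10478 genes were higher and 31.8% lower. The members' median log2 ratio was 0.54, and that of all genes was -0.57, so a gene at the members' median lay 1.11 above the general shift. With TMM scaling, which moves the all-gene median to -0.10, 19 members were higher and 0 lower (12.3% and 19.3% of all genes). The called genes were Edem1 and Sel1l (ERAD), Sdf2l1 and Dnajc3 (chaperones), Sec61g, Sec61b, Sec11c and Ssr3 (translocon), Eif2ak3 and Xbp1. Edem1 stood at 338 CPM in Ngn3KO and 64.2 CPM in Neurod1OE cells, a log2 ratio of 2.38 (interval 2.34 to 2.45). This contrast sets nearly pure Cpa1 cells against a mixture of states, and within Cpa1 cells 1 member was higher, or 6 with TMM scaling (4.37% and 7.49% of all genes).

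**Figure D2:**
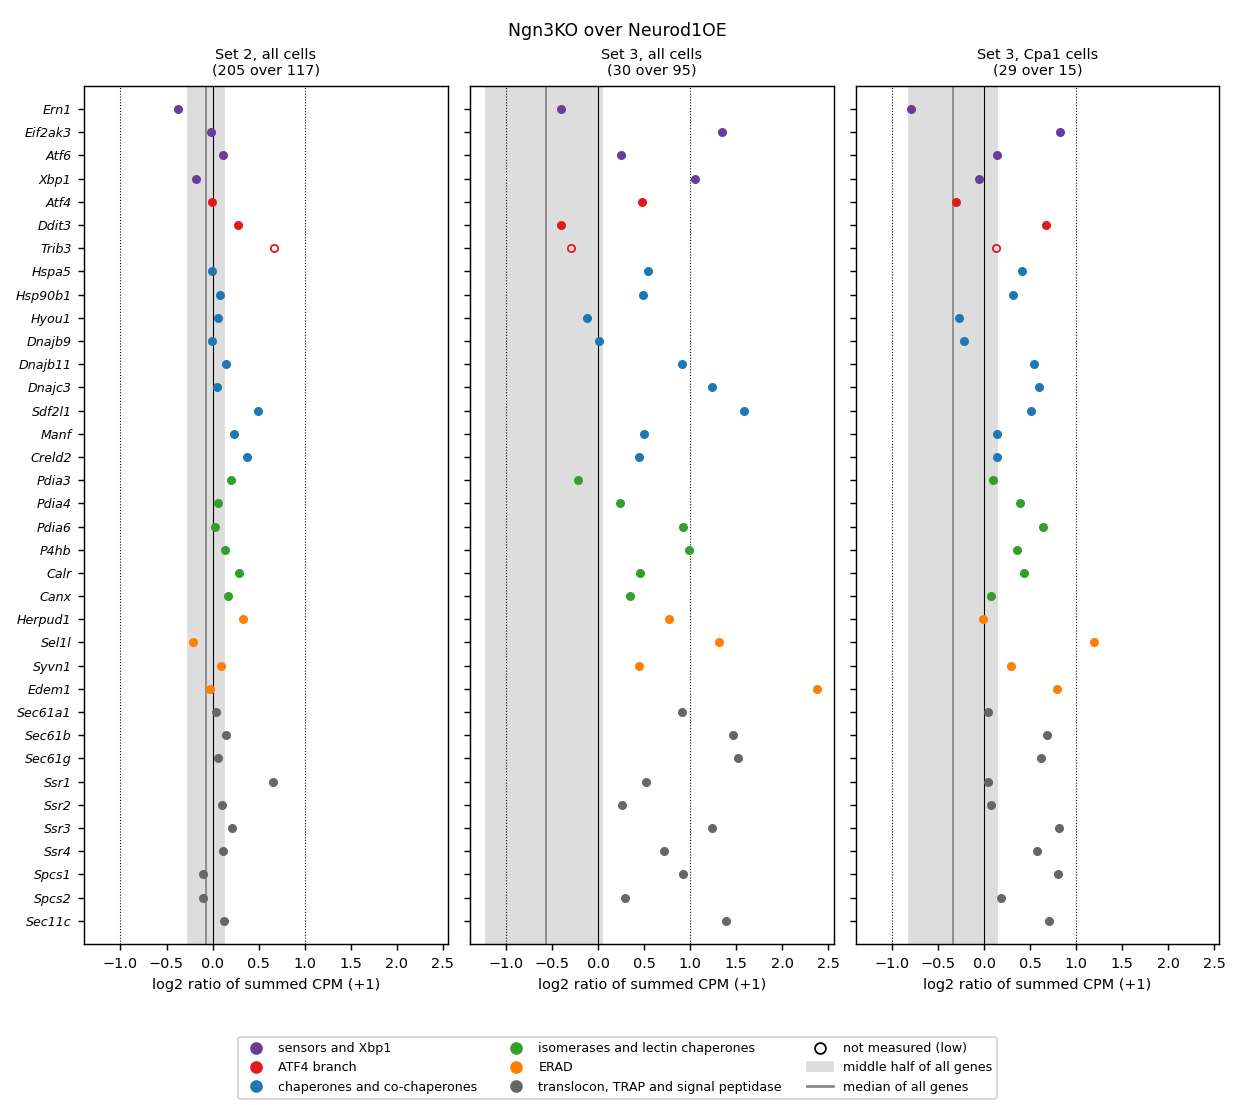
Log2 ratio of summed CPM (+1) of Ngn3KO over Neurod1OE for each gene, coloured by role, in all cells of set 2, all cells of set 3 and the Cpa1 cells of set 3; the band and line show the quartiles and median of all measured genes. In set 2 the members lie between -0.37 and 0.65; in set 3 they spread up to 2.38 for Edem1, and in Cpa1 cells alone up to 1.19 for Sel1l.

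Cpa1 and Gcg cells could be compared within 1 sample, the Neurod1OE cells of set 3, where no difference of genotype or set enters. Of 35 measured members, 10 were at least 2-fold higher in Cpa1 cells (Edem1, Xbp1, Sec61g, Sec61a1, Sdf2l1, Atf4, Ssr3, P4hb, Sec61b and Sel1l) and 1, Ddit3, was lower. Among all 10683 genes measured, 19.3% were higher and 26% lower. The members' median log2 ratio was 0.50, and that of all genes was -0.21, with quartiles of -1.04 and 0.69. The members' share of higher calls was thus above that of all genes, and their share of lower calls was far below it. Beside this contrast, 13 of 16 acinar markers were at 10 CPM or more in Cpa1 cells (31341 CPM summed) and 5 of 16 in Gcg cells (740 CPM). Pan-endocrine markers summed to 3331 CPM in Cpa1 cells, with 15 of 16 at 10 CPM or more, and to 16805 CPM in Gcg cells, with 16 of 16. Cell cycle markers summed to 1005 CPM in Cpa1 cells (4 of 4) and to 18.9 CPM in Gcg cells (0 of 4). The median total was 1375505 reads in Cpa1 cells and 682756 in Gcg cells. By Xist and Y-linked genes 8 Cpa1 cells were female and 6 male, and 5 Gcg cells were female and 23 male. Cells of both sexes mean that this sample holds more than 1 animal, and the sexes were split unevenly between the states. The part of cell cycle, depth, sex and animal in these ratios was not tested.

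**Figure D3:**
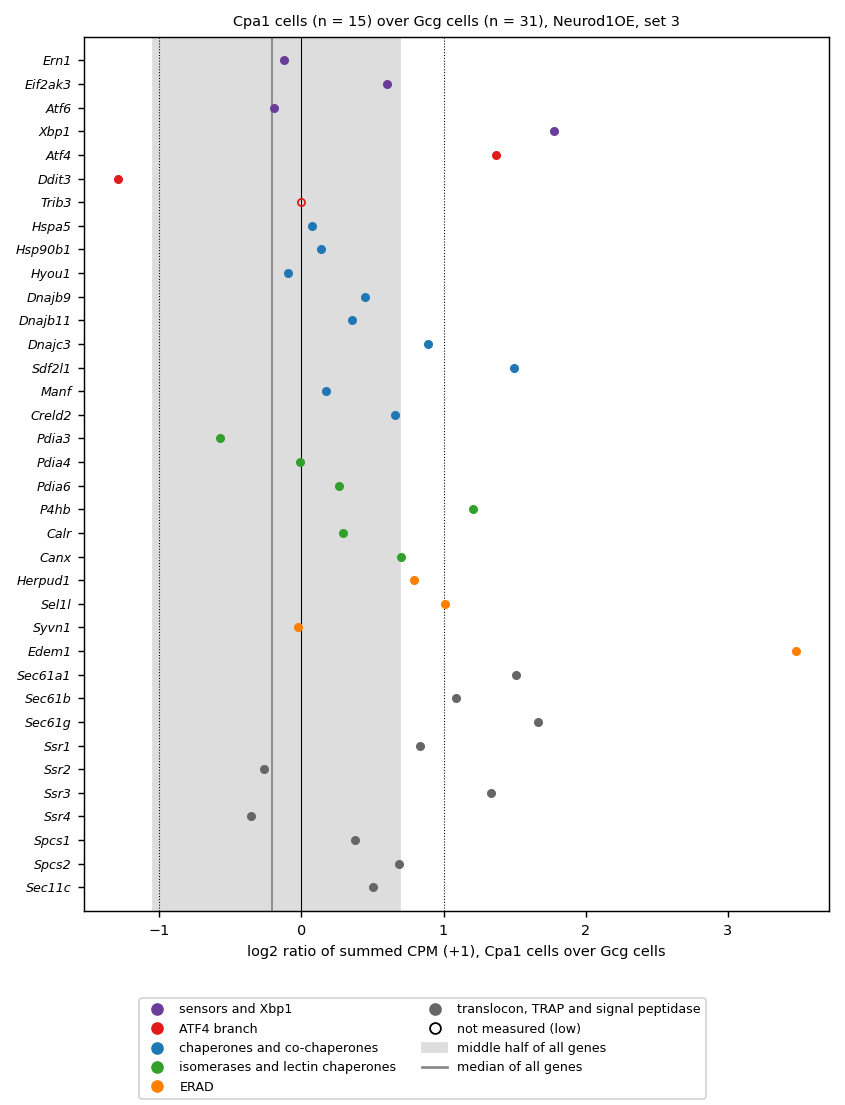
Log2 ratio of summed CPM (+1) of Cpa1 cells (n = 15) over Gcg cells (n = 31) of Neurod1OE in set 3 for each gene, ordered and coloured by role, with the quartile band and median of all measured genes. Edem1 stands at 3.48 and Ddit3 at -1.29; the sensors lie between -0.20 (Atf6) and 0.60 (Eif2ak3), and Pdia3 at -0.57.

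The sensors themselves were scarce and close between the states, whereas their target Xbp1 was not. Per kilobase of exon, Ern1, Eif2ak3 and Atf6 stood between 1.51 and 6.09 RPKM (CPM per kilobase) in all 6 groups. Ern1, the IRE1 gene, had 44.4 CPM in Cpa1 cells and 48.5 CPM in Gcg cells of Neurod1OE in set 3 (log2 ratio -0.12, interval -0.26 to 0.01). Atf6 had 45.2 CPM in Cpa1 cells and 51.97 CPM in Gcg cells. Eif2ak3, the PERK gene, had 20.3 CPM in Cpa1 cells and 13.04 CPM in Gcg cells, with a read in 12 of 15 and in 10 of 31 cells. In these 3 genes the states differed by less than 2-fold. Xbp1 (chromosome 11, 5520659 to 5525893, plus strand, mm10), the factor made active by IRE1, stood at 403 CPM in Cpa1 cells and 117.1 CPM in Gcg cells (log2 ratio 1.78, interval 1.72 to 1.85). Its lowest, median and highest cells had 103.4, 329.8 and 762 CPM in Cpa1 cells, and 0, 89.6 and 409 CPM in Gcg cells. Every Cpa1 cell had more than the median Gcg cell, but the ranges overlapped. Per length, Xbp1 had 124.2 RPKM in Cpa1 cells and 36.1 RPKM in Gcg cells. In CPM, Gcg cells of set 2 stood close to those of set 3, with 124.2 CPM in Ngn3KO and 134.3 CPM in Neurod1OE.

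Xbp1 in Cpa1 cells was also alike between the labels, at 388 CPM in Ngn3KO (median cell 368.9 CPM, range 149.6 to 818 CPM) and 403 CPM in Neurod1OE, a log2 ratio of -0.06. The sensors went different ways there. Eif2ak3 stood at 36.7 CPM in Cpa1 cells labelled Ngn3KO and 20.3 CPM in those of Neurod1OE (log2 ratio 0.82, interval 0.67 to 1.04), with a read in 22 of 29 and 12 of 15 cells. Ern1 stood at 25.2 CPM in Ngn3KO and 44.4 CPM in Neurod1OE Cpa1 cells (-0.80, interval -0.98 to -0.66), with a read in 25 of 29 and 15 of 15 cells. Neither reached 2-fold, and 1 cell held 21.9% of the Ern1 reads of the Neurod1OE Cpa1 cells. Atf6 differed least of the sensors, with 50.03 CPM in Ngn3KO and 45.2 CPM in Neurod1OE Cpa1 cells.

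**Figure D4:**
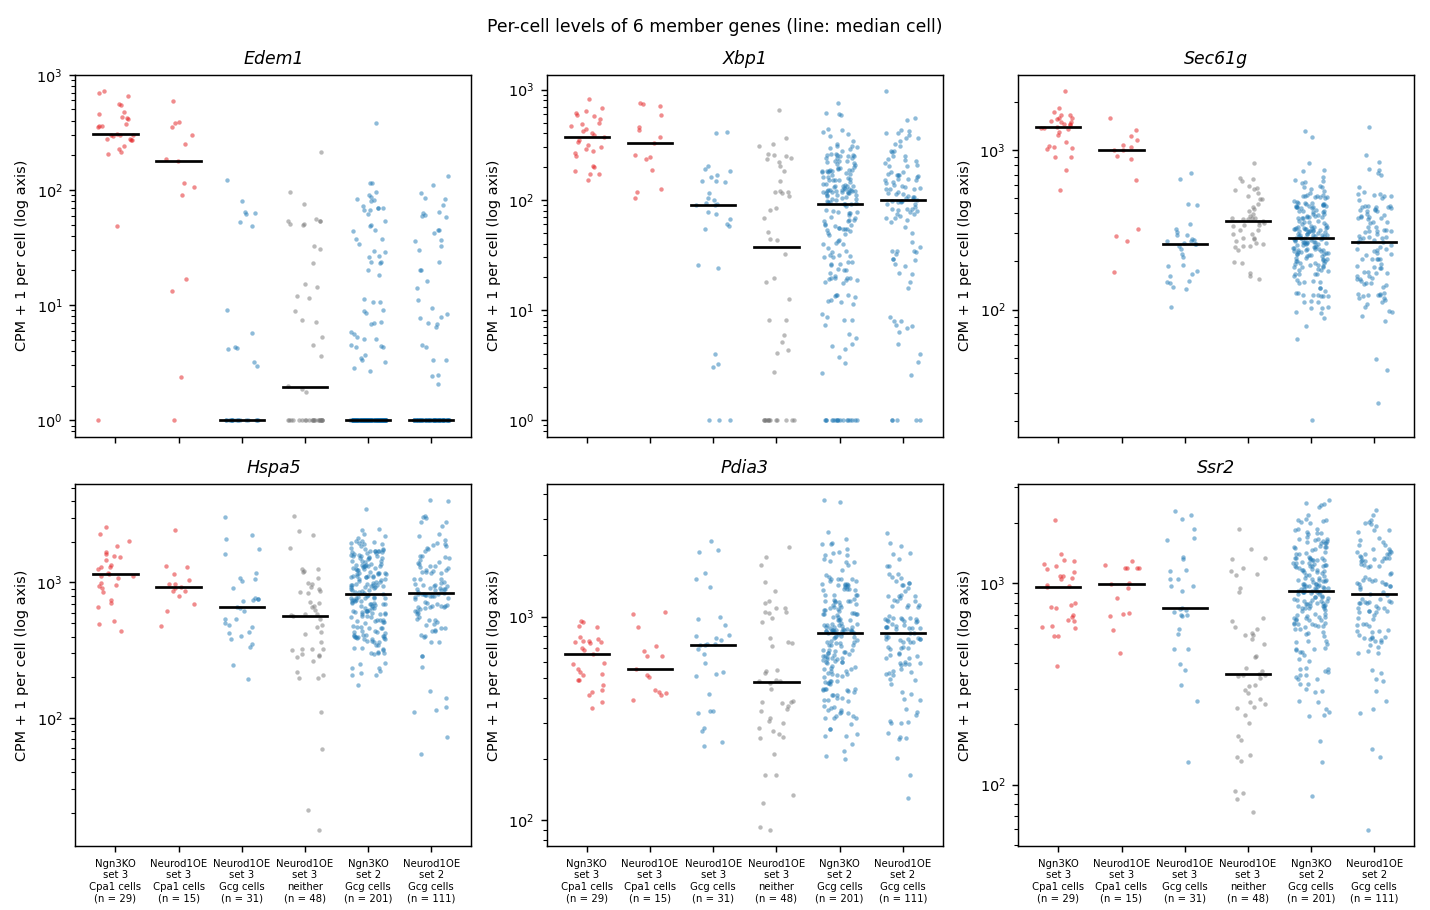
CPM + 1 per cell (log axis) of Edem1, Xbp1, Sec61g, Hspa5, Pdia3 and Ssr2 in 6 groups of cells; each point is a cell, lines are median cells, red marks Cpa1, blue Gcg and grey cells with neither. Edem1 has its median at 308 CPM in Cpa1 cells labelled Ngn3KO and at 0 in each Gcg group, while Hspa5, Pdia3 and Ssr2 overlap across the states.

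The 3 genes of the ATF4 branch did not go together. Atf4 (chromosome 15, 80255184 to 80257541, plus strand), the factor translated when PERK is active, stood at 183.3 CPM in Cpa1 cells and 70.4 CPM in Gcg cells of Neurod1OE in set 3 (log2 ratio 1.37, interval 1.29 to 1.47). Its lowest, median and highest cells had 27.6, 163.7 and 403.5 CPM in Cpa1 cells, and 0, 54.9 and 228 CPM in Gcg cells. At least 100 CPM was reached by 12 of 15 Cpa1 cells and 8 of 31 Gcg cells. Ddit3 (chromosome 10, 127290774 to 127296288, plus strand), which encodes CHOP, a factor linked to cell death under lasting stress, went the other way, with 9.11 CPM (7.76 to 10.6) in Cpa1 cells and 23.7 CPM (21.8 to 25.9) in Gcg cells. It was near its limit of detection: 7 of 15 Cpa1 cells and 16 of 31 Gcg cells had a read, and the highest had 41.2 CPM among Cpa1 cells and 93.8 CPM among Gcg cells. The states thus hardly differed in the share of cells with a read. Exons of Ddit3 overlap the antisense genes Mars and Gm4189, whose reads may not be told apart. Trib3, a pseudokinase gene induced by ATF4 and CHOP, was not measured in any contrast, with reads in 0 of 15 Cpa1 cells and 0 of 31 Gcg cells. A count of 0 allows up to 20% of such Cpa1 cells and 9.68% of such Gcg cells to have had a read.

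Cells high in Ddit3 were not the cells high in Hspa5. At least 50 CPM of Ddit3 was found in 19 Ngn3KO and 6 Neurod1OE cells of set 2, and in 2 cells labelled Ngn3KO and 13 Neurod1OE cells of set 3. The median of Hspa5 in these cells against the other cells of the same group was 762 and 850.0 CPM in Ngn3KO of set 2, 825 and 853 CPM in Neurod1OE of set 2, and 539 and 681 CPM in Neurod1OE of set 3. In each of these 3 groups the Ddit3-high cells had the lower median of Hspa5. In Neurod1OE of set 3 they were 4 Gcg cells, 9 cells with neither marker and 0 Cpa1 cells, so its medians compare unlike mixes of states. Within Gcg cells of set 2 the rank correlation (Spearman's rho) of Ddit3 with Hspa5 was 0.01 in Ngn3KO and -0.13 in Neurod1OE. Trib3 had a read in 3 Ngn3KO cells of set 2 and in 1 cell of each other genotype and set. Between the genotypes, Atf4 stood at 87.9 CPM in Ngn3KO and 84.9 CPM in Neurod1OE Gcg cells of set 2, and at 147.9 CPM in Ngn3KO and 183.3 CPM in Neurod1OE Cpa1 cells of set 3 (log2 ratio -0.31, interval -0.38 to -0.24).

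Among the 9 chaperones and co-chaperones, 1 was at least 2-fold higher in Cpa1 than in Gcg cells (median log2 ratio 0.36), a share below the 19.3% of all genes, and the leading ones by reads were nearly level. Hspa5 (chromosome 2, 34771970 to 34777547, plus strand), which encodes BiP, the Hsp70 of the ER, stood at 921 CPM in Cpa1 cells and 873 CPM in Gcg cells of Neurod1OE in set 3 (0.08, interval 0.05 to 0.11). The lowest, median and highest cells had 476, 930.1 and 2421 CPM in Cpa1 cells, and 193.3, 659 and 3049 CPM in Gcg cells. The range of Gcg cells held that of the Cpa1 cells, although the median cell was lower in Gcg cells. Hsp90b1, the Hsp90 of the ER, had 717 CPM in Cpa1 cells and 651 CPM in Gcg cells. The called gene was Sdf2l1, whose product works in the BiP cycle, with 139.5 CPM in Cpa1 cells and 48.7 CPM in Gcg cells (1.5, interval 1.41 to 1.62). Its median cell had 132.3 CPM in Cpa1 cells and 3.50 CPM in Gcg cells, and a read was present in 15 of 15 and 20 of 31 cells. Dnajc3, a J-domain partner of BiP, stood at 199.3 CPM in Cpa1 cells and 107.2 CPM in Gcg cells (0.89). The other J-domain genes Dnajb9 (0.44) and Dnajb11 (0.36), the Hsp70-like Hyou1 (-0.09), and Manf (0.17) and Creld2 (0.66), secreted or ER-retained proteins known to be induced by ER stress, lay within 2-fold. Per length, Manf (179.5 RPKM) stood between Hspa5 (236 RPKM) and Hsp90b1 (170.6 RPKM) in Ngn3KO Gcg cells of set 2.

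Of the 6 isomerases and lectin chaperones, P4hb was at least 2-fold higher in Cpa1 cells and the others were not, a share near the 19.3% of all genes. P4hb, protein disulfide isomerase, stood at 1032 CPM in Cpa1 cells and 446 CPM in Gcg cells (log2 ratio 1.21, interval 1.17 to 1.24). Its lowest, median and highest cells had 432, 1010 and 1588 CPM in Cpa1 cells, and 93.8, 359 and 1289 CPM in Gcg cells. The lowest Cpa1 cell thus exceeded the median Gcg cell. Its relative Pdia3, which works with the lectin chaperones on glycoproteins, had the opposite order, with 575 CPM in Cpa1 cells and 855 CPM in Gcg cells (-0.57, interval -0.61 to -0.54). Per length, P4hb had 361 RPKM and Pdia3 183.2 RPKM in Cpa1 cells, against 155.9 RPKM of P4hb and 272 RPKM of Pdia3 in Gcg cells. The order of these isomerases was thus turned round between the states. In Gcg cells of set 2 Pdia3 again exceeded P4hb per length, with 301.5 and 130.7 RPKM in Ngn3KO and 274.2 and 111.6 RPKM in Neurod1OE. Canx (0.70), Calr (0.30), Pdia6 (0.26) and Pdia4 (-0.01) lay within 2-fold. Calr and Canx encode calreticulin and calnexin, the lectin chaperones.

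Of the 4 ERAD genes, which serve the removal of misfolded protein from the ER, 2 were at least 2-fold higher in Cpa1 cells, where 19.3% of all genes were higher and 26% lower. Edem1 had the largest ratio of the 35 measured members. Edem1 (chromosome 6, 108828641 to 108859356, plus strand), whose product directs misfolded glycoproteins to degradation, stood at 201.7 CPM (195.1 to 208) in Cpa1 cells and 17.2 CPM (15.52 to 19.01) in Gcg cells, a log2 ratio of 3.48 (interval 3.40 to 3.71). Its lowest, median and highest cells had 0, 178.7 and 590.2 CPM in Cpa1 cells, and 0, 0 and 121.6 CPM in Gcg cells. A read was present in 14 of 15 Cpa1 cells and 14 of 31 Gcg cells, and after thinning each cell to 165298 reads in 14 of 15 and 10 of 26 cells. Most Gcg cells thus had none or few reads, also at equal depth. By sex, Edem1 had 126.1 CPM in 6 male Cpa1 cells and 19.7 CPM in 23 male Gcg cells, and 262 CPM in 8 female Cpa1 cells and 3.00 CPM in 5 female Gcg cells. Both Cpa1 subsets and the female Gcg subset hold under 10 cells, and the part of sex in this ratio was not tested. The level of Edem1 was as low in Gcg cells of set 2, at 14.8 CPM in Ngn3KO and 12.7 CPM in Neurod1OE, with a read in 28.4% and 34.2% of cells. Cells with neither marker, at 20.96 CPM, had the level of Gcg cells rather than that of Cpa1 cells. Sel1l, the adaptor of the ERAD ubiquitin ligase, stood at 251 CPM in Cpa1 cells and 124.1 CPM in Gcg cells (1.01, interval 0.95 to 1.08), but its median cell had 136.04 CPM in Cpa1 cells and 88.3 CPM in Gcg cells. The difference of medians was 0.62 on the log2 scale, below 2-fold. Herpud1, a stress-induced partner of that ligase, had 382 CPM in Cpa1 cells and 219.8 CPM in Gcg cells, while Syvn1, the ligase itself, had 35.8 and 36.3 CPM.

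Of the 10 genes of the translocon, the TRAP complex and signal peptidase, 4 were at least 2-fold higher in Cpa1 cells: the Sec61 subunits and Ssr3. Among all genes of this contrast, 19.3% were higher and 26% lower. Sec61a1, the channel subunit, stood at 381 CPM in Cpa1 cells and 133.4 CPM in Gcg cells (log2 ratio 1.51, interval 1.45 to 1.58). Sec61g had 891 CPM in Cpa1 cells and 279.9 CPM in Gcg cells (1.67, interval 1.63 to 1.71), and Sec61b had 936 CPM in Cpa1 cells and 439 CPM in Gcg cells (1.09, interval 1.06 to 1.13). All 3 subunits of the channel were thus higher together. Sec61b and Sec61g share sequence with the copies Gm10320 (98.3% over 474 bases) and Gm10177 (100.0% over 420 bases), so their own levels are uncertain; Sec61a1 has no such copy in the files. The lowest, median and highest cells for Sec61g had 171.8, 995 and 1582 CPM in Cpa1 cells, and 103.2, 256.5 and 719 CPM in Gcg cells. Of the 4 subunits of TRAP, which helps the translocon take up certain signal sequences, Ssr3 (572 CPM in Cpa1 cells and 226 CPM in Gcg cells, 1.33) and Ssr1 (1465 and 822 CPM, 0.83) were higher in Cpa1 cells, and Ssr2 (889.8 and 1069 CPM, -0.26) and Ssr4 (455 and 582 CPM, -0.35) were higher in Gcg cells. The subunits of this complex thus did not keep 1 ratio between the states. The signal peptidase genes Spcs1 (0.38), Spcs2 (0.69) and Sec11c (0.50) lay within 2-fold; the level of Spcs2 is uncertain too, since it shares sequence with Spcs2-ps (95.8% over 683 bases).

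Read against the promoter windows, the genes with an ERSE lay within 2-fold between Cpa1 and Gcg cells. Of the 8 genes with an ERSE in the window, 0 reached 2-fold, where 19.3% of all genes were higher and 26% lower, with log2 ratios from -0.02 (Syvn1) to 0.89 (Dnajc3); Hspa5, whose window is the first printed, stood at 0.08. Of the 11 members past 2-fold in either direction, Sec61a1 was not matched to a promoter window, and none of the others had an ERSE or ERSE-II match in its window. The count of 0 of 8 lies below the shares of all genes called higher (19.3%) or lower (26%). With so few genes nothing particular to the ERSE is read from it, and its part was not tested.

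Within Cpa1 cells, the cells labelled Ngn3KO had most of these genes at a slightly higher level than the Neurod1OE cells, with 1 of 35 at least 2-fold higher (Sel1l) and 0 lower, where 4.37% of all 9588 genes were higher and 18% lower. The members' median log2 ratio was 0.36 and 29 were above 0, against an all-gene median of -0.34. With TMM scaling, under which the all-gene median was -0.04, 6 were higher (Sel1l, Ssr3, Eif2ak3, Spcs1, Edem1 and Sec11c) and 0 lower, where 7.49% of all genes were higher and 10.8% lower. Sel1l (chromosome 12, 91806043 to 91849157, minus strand) stood at 574 CPM in Ngn3KO and 251 CPM in Neurod1OE Cpa1 cells (1.19, interval 1.15 to 1.25). Its lowest, median and highest cells had 85.7, 513 and 1554 CPM in Ngn3KO, and 63.1, 136.04 and 2131 CPM in Neurod1OE. The medians lay far apart, but the highest cell of all was a Neurod1OE cell, and with the mean of the cells' CPM the log2 ratio was 0.69. Edem1 stood at 349.9 CPM in Ngn3KO (median cell 308 CPM, range 0 to 723 CPM) and 201.7 CPM in Neurod1OE (0.79, interval 0.74 to 0.85), with a read in 28 of 29 and 14 of 15 cells. The translocon group had all 10 members above 0, with a median of 0.60 and values up to 0.82 for Ssr3 (1008 CPM in Ngn3KO and 572 CPM in Neurod1OE). Hspa5 had 1223 CPM in Ngn3KO and 921 CPM in Neurod1OE (0.41).

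Cpa1 cells of the 2 labels also differed in other ways. Acinar markers summed to 85480 CPM in Ngn3KO and 31341 CPM in Neurod1OE Cpa1 cells, with Cpa1 itself at 10992 and 5165 CPM. Pan-endocrine markers summed to 720 CPM in Ngn3KO (9 of 16 at 10 CPM or more) and 3331 CPM in Neurod1OE (15 of 16). Mesenchyme markers summed to 1031 CPM in Ngn3KO (6 of 7) and 80.9 CPM in Neurod1OE (1 of 7), where Pdgfra, Lum and Dcn were at 0. By Xist and Y-linked genes all 29 Ngn3KO Cpa1 cells were male, and of the Neurod1OE Cpa1 cells 8 were female, 6 male and 1 uncalled. Edem1 stood at 126.1 CPM in the 6 male and 262 CPM in the 8 female Neurod1OE cells, and Hspa5 at 951 and 892 CPM. The part of these features in the ratios between the labels was not tested. Among male cells of all states in set 3, 13 members were at least 2-fold higher in cells labelled Ngn3KO and 0 lower, where 7.84% of all genes were higher and 34.6% lower.

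Set 2 is itself divided by Gm12338, a predicted gene found in some cells of each genotype and not in others; this division was known from earlier results. In the cells below 10 CPM of it (97 Ngn3KO and 66 Neurod1OE cells), Ssr1 was at least 2-fold higher in Ngn3KO and Edem1 lower, where 1.43% of all genes were higher and 3.5% lower. Ssr1 (chromosome 13, 37966605 to 37994217, minus strand), a TRAP subunit, stood there at 1863 CPM in Ngn3KO and 814 CPM in Neurod1OE (log2 ratio 1.19), with median cells of 1362 and 584 CPM. In the other cells of set 2, 51 of them Neurod1OE, Ssr1 stood at 951 CPM in Ngn3KO and 905 CPM in Neurod1OE (0.07), with median cells of 722 and 702 CPM. The ratio of 0.65 in the whole set was thus carried by the cells low in Gm12338. Edem1 stood at 4.33 CPM in Ngn3KO and 18.2 CPM in Neurod1OE in the low cells (-1.85), and at 27.5 CPM in Ngn3KO and 17.1 CPM in Neurod1OE in the high cells (0.66). Its median cell was at 0 in all 4 subsets, and 1 Neurod1OE cell, of both states, held 53.5% of the reads behind the 18.2 CPM. In Gcg cells alone, without it, Edem1 stood at 4.42 CPM in Ngn3KO and 9.16 CPM in Neurod1OE (-0.91), under 2-fold and below the minimum of 10 CPM, so its call rests on that cell. Among these Gcg cells 1 member, Ssr1, was higher and 0 were lower, where 1.66% of all genes were higher and 2.56% lower. Hspa5 stayed within 2-fold in both (0.19 in the low and -0.19 in the high cells). Low cells were 92 female and 5 uncalled in Ngn3KO, and 64 female and 2 uncalled in Neurod1OE. Called sex thus did not differ between the genotypes in the low cells. High cells were 98 female and 10 uncalled in Ngn3KO, and 40 male and 11 uncalled in Neurod1OE. Genotype and called sex thus cannot be told apart in the high cells. In Neurod1OE, Gm12338 level and called sex thus coincided and cannot be told apart. Cells of both sexes also mean that this sample holds more than 1 animal. The part of sex in these ratios was not tested.

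**Figure D5:**
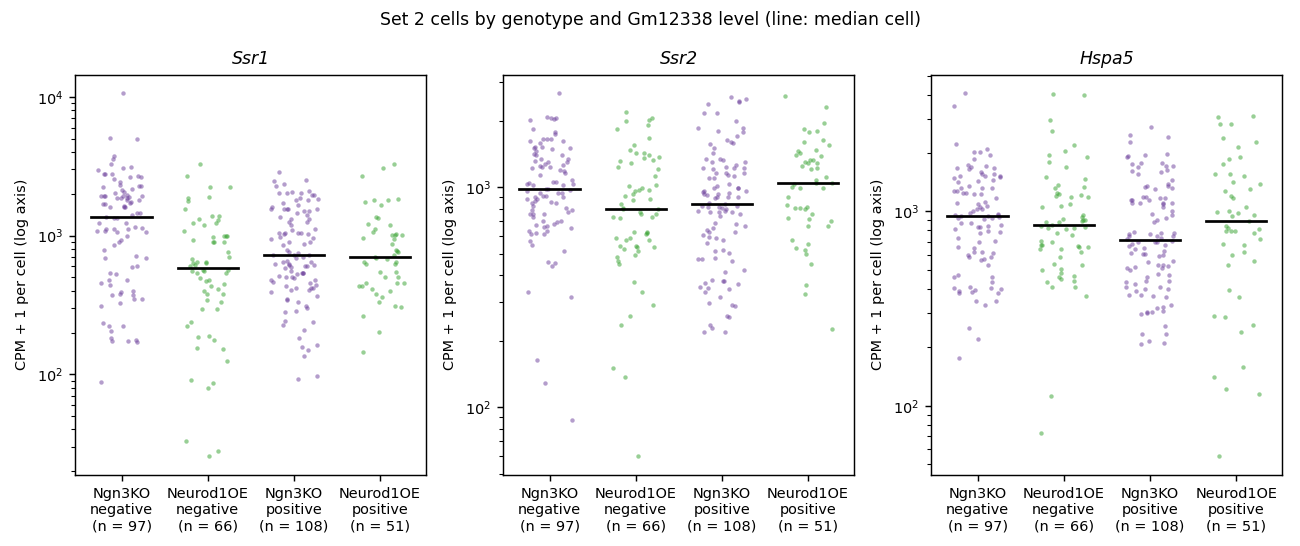
CPM + 1 per cell (log axis) of Ssr1, Ssr2 and Hspa5 in set 2, by Gm12338 level (below, or at or above 10 CPM) and genotype, Ngn3KO left of Neurod1OE; points are cells and lines median cells. For Ssr1 the median cell has 1362 CPM in Ngn3KO and 584 CPM in Neurod1OE among cells low in Gm12338, and 722 and 702 CPM among the others.

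Across cells, import and folding genes went together in each group, while ERAD and the ATF4 branch followed folding differently from group to group. Spearman's rho between the translocon sum and the sum of chaperones and isomerases was 0.67 in Ngn3KO and 0.75 in Neurod1OE over the 312 Gcg cells of set 2, 0.76 over 31 Gcg cells and 0.44 over 15 Cpa1 cells of Neurod1OE in set 3, and 0.60 over 29 Cpa1 cells labelled Ngn3KO. For the ERAD sum it was 0.59 in Cpa1 cells labelled Ngn3KO, as for the translocon there, but 0.03 in Cpa1 cells of Neurod1OE, 0.03 in each Gcg group of set 2 and 0.01 in Gcg cells of set 3. For the ATF4 branch it was -0.35 in Cpa1 cells labelled Ngn3KO and -0.36 in those of Neurod1OE. In Gcg cells it was 0.01 in Ngn3KO and -0.11 in Neurod1OE of set 2, and 0.25 in Neurod1OE of set 3. These are descriptions over cells that share a library preparation and differ in depth. Hspa5 went most closely with Pdia6 (0.63), Manf (0.60), Pdia3 (0.57), Hsp90b1 (0.57) and Calr (0.55) over 447 cells, and with Atf4 at 0.04. Of 9815 other genes, the most alike to the folding genes over these cells were Tmed10 (0.62), a cargo receptor of early secretory vesicles, Rpn2 and Ddost (0.58 each), subunits of the oligosaccharyltransferase, Fkbp2 (0.50), an ER prolyl isomerase, and Erp29 (0.46), an ER folding factor. The share of reads in hormone and enzyme genes had a rho with the folding sum of -0.14 in Ngn3KO and -0.23 in Neurod1OE Gcg cells of set 2, but of 0.61 in Cpa1 cells labelled Ngn3KO and 0.39 in those of Neurod1OE, with these genes left out of the totals. More secretory RNA per cell thus went with slightly less folding RNA in Gcg cells, and with more of it in Cpa1 cells.

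Other genes of the pathway were read from wider lists of 29 ATF4 targets and 66 genes of ER import and folding. In Cpa1 over Gcg cells of Neurod1OE in set 3, 12 of 23 measured ATF4 targets were at least 2-fold higher and 2 lower (median log2 ratio 1.02), where 19.3% of all genes were higher and 26% lower. They included Nupr1, a stress-induced chromatin protein gene (273 CPM in Cpa1 cells and 1.30 CPM in Gcg cells), and the serine synthesis genes Phgdh (510.1 and 7.88 CPM) and Psat1 (100.1 and 3.14 CPM). Gadd45a and Sesn2, both stress-inducible, were the lower ones, as Ddit3 was. Targets of the same factor thus went both ways. Of 63 import and folding genes, 17 were higher and 5 lower (median 0.38), which is not far above that 19.3% for the higher ones. The leading one by size was Bhlha15, the acinar factor MIST1, with 148.3 CPM in Cpa1 cells and 8.15 CPM in Gcg cells; Creb3l1, an ER-bound transcription factor gene, had 67.8 and 7.84 CPM, and Derl3, an ERAD gene, 10.8 and 0.179 CPM.

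The wider lists were also read between the labels. In Cpa1 cells, where 4.37% of all genes were higher and 18% lower, 2 of 22 ATF4 targets were higher in Ngn3KO and 2 lower (median -0.13), with Nupr1 at 1470 CPM in Ngn3KO and 273 CPM in Neurod1OE, Atf5 at 13.1 and 59.7 CPM, and Sesn2 at 6.76 and 24.5 CPM. Of 64 import and folding genes there, 6 were higher and 1 lower (median 0.24), with the KDEL receptor gene Kdelr3 at 24.9 CPM in Ngn3KO and 4.04 CPM in Neurod1OE, and Sec61a2 at 5.73 and 32.3 CPM. In all cells of set 3, where 5.96% of all genes were higher and 31.8% lower, the counts were 8 higher and 4 lower of 23 ATF4 targets (median 0.32), and 19 higher and 3 lower of 65 import and folding genes (median 0.48). In set 2, where 0.859% of all genes were higher and 1.67% lower, 0 of 22 ATF4 targets were higher and 4 lower (median -0.18), among them Nupr1 (2.11 CPM in Ngn3KO and 37.4 CPM in Neurod1OE), Phgdh (13.6 and 41.3 CPM) and Ppp1r15a, a phosphatase subunit that reverses the PERK signal (15.2 and 35.99 CPM). Within Gcg cells of set 2, where 1.44% of all genes were lower, 2 of 21 were lower, Ppp1r15a (14.96 CPM in Ngn3KO and 36.6 CPM in Neurod1OE) and Eif4ebp1 (13.02 and 27.3 CPM). Nupr1 and Phgdh were not called there, so their calls in the whole set rest on the few cells outside the Gcg state. Of the import and folding genes 1 was lower in both counts, Creb3l1, with 10.7 CPM in Ngn3KO and 27.98 CPM in Neurod1OE Gcg cells.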

How the data were processed

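The authors deposited raw counts of reads, whole numbers for each gene in each cell, as 2 sparse matrices with 1 for each set. Trimmomatic 0.39, HISAT2 2.1.0, the mouse build mm10 and featureCounts 2.0.0 are named per the submitters' processing notes; the annotation, the strand setting, molecule barcodes and any cell filter are not given in the sources used here. All 447 cells were used, each the only cell in its well, and 92 ERCC spike-ins were left out. Counts were summed over the cells of a group and scaled to CPM by the plain total; log2 ratios followed after adding 1 CPM. RPKM used merged exon lengths of GENCODE M21, which also gave positions. A gene was measured at 10 CPM and reads in 10% of cells in 1 of 2 sums, and called at 2-fold. States with under 10 cells entered no ratio. Intervals are exact at 95% (Poisson or Clopper-Pearson). Those of log2 ratios come from read counts without the added 1 CPM, so a printed ratio need not lie at their middle. Limits for a count of 0 rest on 3 counts. PCR reads are not independent molecules. Exons of some members overlap antisense genes, whose reads may not be told apart. The bases shared were 415 in Hsp90b1, 252 in Spcs1, 239 in Ssr2, 166 in Manf, 91 in Syvn1 and 81 in Ddit3, and fewer in Pdia6, Pdia3 and Dnajb9. The rule for named genes took the leading members of each role, those past 2-fold, and the sensors, Xbp1, Hspa5 and the ATF4 branch whatever their values. Members, lists and subsets were chosen with earlier results of these data known. Scripts were tested on simulated data. Python 3.11.15, numpy 2.4.6, scipy 1.17.1, pandas 2.3.3 and matplotlib 3.10.9 were used, with R 4.3.3, edgeR 4.0.16 (TMM) and DESeq2 1.42.0 (size factors) for scaling only.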

Additional observations from a re-analysis of the deposited data

How the results depend on the processing

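Called members kept their direction under 10 alternatives to each ratio, and another pseudocount, filter or limit cannot turn it. Of the 10, TMM, size factors and totals without hormone and enzyme genes move all genes alike, by less than 2-fold. These could not turn a called ratio either, so that part of the agreement was fixed in advance. In set 2, with 0 higher and 0 lower, cells low in Gm12338 gave 1 higher (Ssr1) and 1 lower (Edem1, through 1 cell outside the Gcg state), and a limit of 1.5-fold gave 1 higher. Of all genes, 1.43% were higher and 3.5% lower in the low cells, and 3.38% were higher at 1.5-fold. Gcg cells of set 2 gave 1 higher among cells low in Gm12338, 1 higher at 1.5-fold, and 1 lower without cells of several hormones or both states. The matching shares of all genes were 1.66% higher, 3.61% higher and 1.98% lower. In set 3, with 10 higher, TMM gave 19, DESeq2 size factors 20, the median of cells 18 and 1.5-fold 17. The share of all genes that were higher rose too, from 5.96% to 12.3%, 12.9%, 20.6% and 11.4%. In Cpa1 cells between the labels, with 1 higher and 0 lower, TMM gave 6 higher, size factors 5, the mean of cells 0, the median of cells 3, 1.5-fold 11 higher and 1 lower, thinned cells 2 higher and 1 lower, and leaving out the deepest cells 1 lower. In Cpa1 over Gcg cells, with 10 higher and 1 lower, 1.5-fold gave 17 higher, and the median of cells and a minimum of 50 CPM gave 0 lower, since Ddit3 then failed the filter. There 27.7% of all genes were higher at 1.5-fold, and 26.8% and 22.6% were lower with the median of cells and the 50 CPM minimum. Both scalings move every gene by the same amount. The causes of the other changes were not tested. Eif2ak3 (set 3), Sel1l (both Cpa1 contrasts) and Sec61b (Cpa1 over Gcg) were under 2-fold in some settings, the lowest log2 ratios being 0.87, 0.69, 0.62 and 0.99. Male cells alone and a state limit of 3000 CPM left under 10 Cpa1 cells and were not run for those contrasts. No paired analysis was possible because the labels give no replicate numbers shared by animals and no test was made. Depth limits genes without a read in many cells, such as Trib3, Ddit3 and, in Gcg cells, Edem1.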
